A study of Mus musculus with 8 samples.

Results

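The 38 genes described here are imprinted genes of the mouse, which are expressed from one parental allele in at least some tissues. They were taken as a list of gene symbols known to be imprinted. Of the 38, 24 were among the 11315 genes of the RNA-sequencing table, and all 38 carried hydroxymethylation sites in the gene body, where 19925 genes had such sites. Together they held 1492 of the 1497075 CpG sites measured.

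RNA-sequencing gave the gene expression, and reduced representation hydroxymethylation profiling (RRHP) gave the DNA hydroxymethylation, of fluorescent cells sorted from the brains of mice aged 60 days (postnatal day 60). Adult oligodendrocyte progenitors (aOPC) came from Pdgfra-H2BEGFP mice, in which the Pdgfra locus drives a histone H2B-EGFP fusion. Adult oligodendrocytes (aOL), the cells that form myelin, came from Plp-EGFP mice, a transgenic line in which EGFP marks these cells. The labels conflict here: the titles of the aOL RNA libraries call the cells pre-myelinating, and the tissue label of the aOL RRHP libraries names the Pdgfra reporter, so both were assigned to aOL by their titles. All mice were C57BL/6. No other allele or treatment is named for either population, and each had 2 RNA and 2 RRHP libraries, replicates 2 and 3. The reporter line differs with the population, so line and cell type cannot be told apart. The labels do not say how many mice were pooled per library. RRHP reads CCGG sequences whose inner cytosine carries 5-hydroxymethylcytosine (5hmC), because a glucosylated 5hmC is not cut by the enzyme MspI, and its counts were scaled to the library total and are given as CPM (counts-per-million).

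In imprinting, a stretch of DNA that is methylated in the egg or the sperm keeps that methylation on one parental chromosome through the life of the animal. Such a germline region is often a CpG island at a promoter: the methylated copy is silent, and the other copy is transcribed. Neighbouring genes are then controlled over a distance, for example by a long antisense RNA or by an insulator. Several imprinted genes act on growth, and many are expressed in the brain. 5hmC is made from 5-methylcytosine by TET enzymes, so a methylated germline region can in principle carry it. The libraries did not separate the parental alleles, so every value below is the sum of both.

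Some properties of the libraries touch all results. RRHP totals ranged from 7113237 to 27057859 counts, and 3 counts, used as a floor, were 0.422 CPM in aOPC replicate 2 and between 0.111 and 0.188 CPM in the other 3 libraries. aOPC replicate 2 had 5.74% of its counts in CpG islands, against 2.38% to 3.32% in the others. The progenitor marker Pdgfra had log2 RNA values of 7.54 and 5.47 in aOPC against 4.98 and 1.63 in aOL, and 2 of 8 progenitor markers (Neu4 and Vcan) had an unadjusted p under 0.05, both lower in aOL. The summed progenitor markers were 13.43 and 10.66 (log2) in aOPC against 11.15 and 11.40 in aOL, so aOPC replicate 3 lay below both aOL libraries. Of 8 myelin markers, Mog, Cldn11 and Opalin were higher in both aOPC libraries than in both aOL libraries. Each had an unadjusted p under 0.05 by limma, and Opalin had log2 values of 16.13 and 15.88 in aOPC against 14.89 and 15.17 in aOL. Cnp went the other way without overlap, with 19.398 and 19.275 in aOPC against 19.575 in each aOL library. In all, 4 of the 8 were higher in aOL, and the median difference of the list was 0.002. Of the 8 progenitor markers, 4 did not overlap between the populations, all lower in aOL, while 61.8% of all genes tested did not overlap. The 2 progenitor markers at an unadjusted p under 0.05 stand beside 24% of all genes by limma. These marker counts are not clearly above the shares of all genes and do not settle the labels. The populations are called by their labels. Among markers of other cells at an unadjusted p under 0.05, 1 neuron, 2 astrocyte and 2 microglia markers were lower in aOL, and both listed endothelial markers, Cldn5 and Kdr, were higher. Of 4 ependyma and choroid plexus markers, Aqp1 (1.80 in each aOPC library against 6.96 and 9.05 in aOL) and Kl were higher and Foxj1 lower. The part of these cells in the results was not tested. The difference between replicates had an SD across genes of 0.95 log2 units in aOPC and 0.45 in aOL.

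Steady-state RNA of the imprinted genes was compared first. Zrsr1 was 2.98 log2 units higher in aOL, Igf2r 1.90, Peg3 1.36 and Plagl1 1.16, while Grb10, Commd1, Cdkn1c, Mcts2 and Igf2 had lower values in aOL. None of the 23 members that passed the filter on low values was called by limma (unadjusted p under 0.01 and adjusted p under 0.05), a rule that called 9 of 11133 genes, 0.0808%. At an unadjusted p under 0.05 there were 8 members, 4 higher and 4 lower in aOL, or 34.8% of those tested, against 24% of all genes tested. This count was 13 without aOPC replicate 2, 12 without aOPC replicate 3, 2 without aOL replicate 2 and 5 without aOL replicate 3. The groups did not overlap in 16 members (9 higher, 7 lower), or 69.6%, against 61.8% of all genes. The median difference was 0.21 log2 units over the members and 0.02 over all genes, and the median size of the difference was 0.68 and 0.44. Differences are on the log2 scale of the deposited values, and in bulk samples fewer cells of a type and less RNA per cell cannot be told apart.

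**Figure D1:**
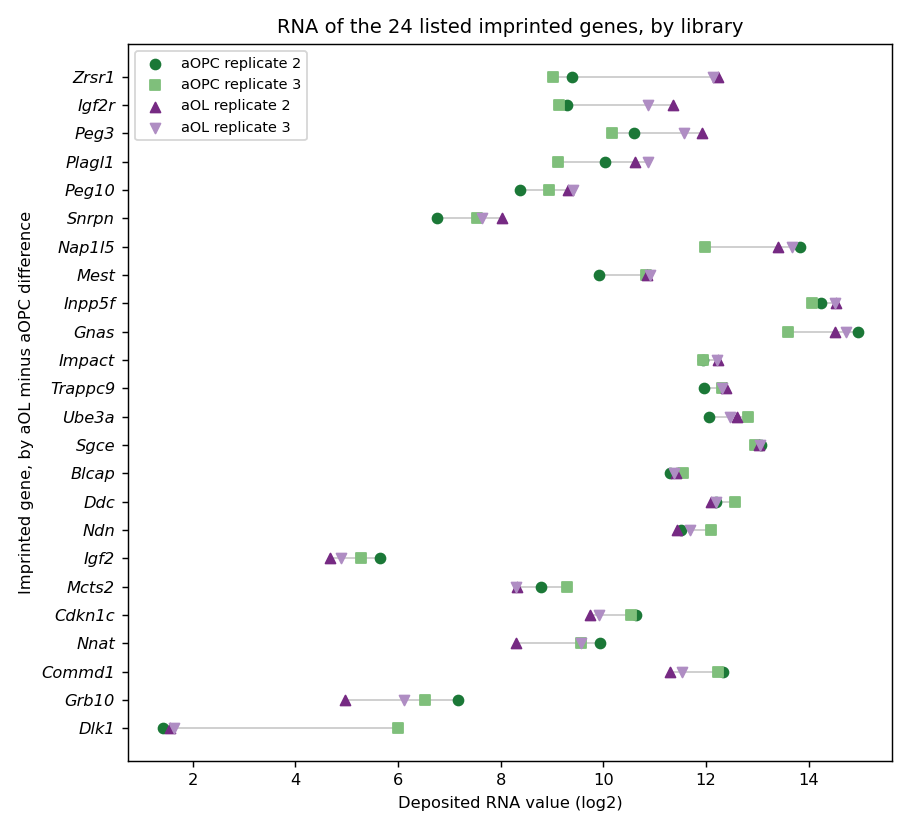
Deposited log2 RNA values (x axis) of the 24 imprinted genes in the RNA table (y axis), ordered by the aOL minus aOPC difference, with 1 point per library and a grey line over the range. Zrsr1, Igf2r, Peg3 and Plagl1 have both aOL libraries above both aOPC libraries, and in Nap1l5 and Gnas the distance between the aOPC replicates exceeds the difference between the groups.

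Genes listed as having a germline region in their own promoter island are described first. This listing is from textbooks, and which promoter of a gene holds the region was not checked. Zrsr1 encodes a zinc-finger protein related to the splicing factor U2AF1 and is an intronless gene (chr11:22972005-22976496, GRCm38) that lies in an intron of Commd1 (chr11:22899728-22984539). Its log2 values were 9.38 and 9.02 in aOPC against 12.23 and 12.14 in aOL, so the populations were far apart compared with the replicates. The difference was 2.98 ± 0.22 (SE, n = 2 per group), 7.91-fold, with an adjusted p of 0.0611 by limma. Over the alternative settings the adjusted p ranged from 0.0151 to 0.0718. It passed the threshold without aOPC replicate 2 (0.0151), aOPC replicate 3 (0.0367), aOL replicate 2 (0.0410) or aOL replicate 3 (0.0330), settings in which 3995, 2344, 100 and 99 of all genes were called. Zrsr1 has a related parent gene, and the methods count uniquely aligned reads only.

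Peg3 (chr7:6703892-6730462), a zinc-finger protein gene expressed from the paternal copy, had values of 10.61 and 10.16 in aOPC against 11.92 and 11.58 in aOL. The difference of 1.36 ± 0.27 was larger than the spread of either pair and had an adjusted p of 0.133. Plagl1 (chr10:13090832-13131694), a zinc-finger transcription factor, had 10.04 and 9.12 in aOPC against 10.61 and 10.87 in aOL, a difference of 1.16 ± 0.38 with an adjusted p of 0.188. It was 1.62 without aOPC replicate 2 and 0.71 without aOPC replicate 3. The aOPC replicates of Plagl1 were 0.91 apart. Mcts2, a retrogene copy of a translation factor gene, had 8.79 and 9.29 in aOPC and 8.31 in each aOL library. It was lower in aOL by 0.73 ± 0.25 (adjusted p = 0.196), and its difference was -0.98 without aOPC replicate 2 and -0.48 without aOPC replicate 3.

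The other germline-region genes had an unadjusted p of 0.05 or more. Peg10, a gene derived from a retrotransposon, had 8.39 and 8.94 in aOPC against 9.31 and 9.41 in aOL. Snrpn, which encodes a spliceosomal Sm protein, had 6.75 and 7.54 in aOPC against 8.02 and 7.64 in aOL, and Mest, a gene of the hydrolase family, had 9.92 and 10.83 against 10.86 and 10.90. In each of these 3 the groups did not overlap, but the aOPC replicates were 0.56 to 0.90 apart, and the unadjusted p was 0.0591, 0.122 and 0.234. Impact, a regulator of the GCN2 kinase, had 11.94 in each aOPC library and 12.24 and 12.22 in aOL. Inpp5f, a phosphoinositide phosphatase gene, had 14.25 and 14.06 in aOPC against 14.54 and 14.52 in aOL. Both differences were under 0.4 log2 units. Nnat, a small membrane protein of the developing brain, had 9.93 and 9.57 in aOPC against 8.29 and 9.56 in aOL, so its aOL replicates were 1.27 apart. Nap1l5, a nucleosome assembly protein family member, had 13.83 and 11.98 in aOPC against 13.40 and 13.68 in aOL, with the aOPC libraries on either side of aOL. Grb10, an adaptor that dampens insulin and IGF receptor signalling and is expressed from different alleles in brain and elsewhere, had 7.18 and 6.53 in aOPC against 4.98 and 6.12 in aOL. Its difference of -1.304 ± 0.49 had an adjusted p of 0.215, and its aOL replicates were 1.14 apart. The difference was -0.73 without aOL replicate 2 and -1.87 without aOL replicate 3.

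The maternally expressed genes differed in direction. Igf2r (chr17:12682406-12769706), the receptor that carries mannose-6-phosphate proteins to lysosomes and clears IGF2, had 9.29 and 9.13 in aOPC against 11.36 and 10.86 in aOL. The difference was 1.90 ± 0.26, or 3.74-fold (adjusted p = 0.112). The adjusted p was 0.0199 without aOPC replicate 2 and 0.0430 without aOPC replicate 3, where 3995 and 2344 of all genes were called, but 0.590 without aOL replicate 2 and 0.196 without aOL replicate 3. Cdkn1c (chr7:143458339-143461059), a cyclin-dependent kinase inhibitor, had 10.63 and 10.55 in aOPC against 9.74 and 9.91 in aOL, lower by 0.77 ± 0.20 (adjusted p = 0.155). Ube3a, a ubiquitin ligase gene that is imprinted in neurons, had 12.06 and 12.81 in aOPC against 12.61 and 12.46 in aOL, where the aOL values lay between the aOPC values. These were the 3 maternally expressed members in the table, and the 6 others (Meg3, Rian, Mirg, Zim1, Phlda2 and H19) were not listed.

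Among the remaining genes, Commd1, the host of Zrsr1 and a regulator of copper handling and NF-kB, had 12.34 and 12.24 in aOPC against 11.31 and 11.52 in aOL. It was lower by 0.87 ± 0.20 (adjusted p = 0.145), opposite in sign to Zrsr1. Igf2, a growth factor gene, had 5.65 and 5.27 in aOPC against 4.69 and 4.88 in aOL (difference -0.68 ± 0.24, adjusted p = 0.199). Igf2 was the only member that passed the filter of 5 through one population alone, so its difference is partly fixed by the filter. Collagen and matrix genes of the pericyte, smooth muscle and fibroblast list moved with it: 4 of the 6 listed (Col1a1, Col1a2, Col3a1 and Dcn) were lower in aOL at an unadjusted p under 0.05, while Acta2 and Vtn had fitted differences of 1.298 ± 0.99 and 1.84 ± 1.51, and the log2 sum of the list was 11.29 and 11.57 in aOPC against 8.67 and 9.98 in aOL. Of the defining markers, Col1a1 stood at 9.65 and 9.34 in aOPC against 6.21 and 2.83 in aOL, and Pdgfrb, Rgs5, Kcnj8 and Lum were not listed. Their part in the Igf2 difference was not tested. Gnas, which encodes the stimulatory G protein alpha subunit, had 14.95 and 13.60 in aOPC against 14.51 and 14.72 in aOL. Ndn, a MAGE family gene, had 11.51 and 12.10 in aOPC against 11.43 and 11.68 in aOL. Sgce, Ddc, Blcap and Trappc9 differed by at most 0.23 log2 units. Dlk1, a transmembrane protein related to Notch ligands, was below the filter, with 1.42, 1.57 and 1.63 in 3 libraries and 5.99 in aOPC replicate 3.

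The genes not in the RNA table were Meg3, Rian, Mirg, Dio3, Usp29, Zim1, Snurf, Magel2, Airn, Kcnq1ot1, Phlda2, H19, Rasgrf1 and Peg13, 14 in all, and no statement on their RNA can be made. By allele, the median difference was 0.51 over 13 paternally expressed genes (9 higher, 4 lower), 0.10 over 3 maternally expressed genes and -0.03 over 7 genes with another or isoform-dependent pattern. Over the 12 tested genes with a germline-region promoter island the median was 0.57, and over the 11 others -0.03. These medians describe the lists, and their difference was not tested.

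5hmC was read next, first in gene bodies (sites that the authors placed in an exon or intron). Snrpn and Zrsr1 had fewer counts in aOL, as did Commd1, which shares sites with Zrsr1, and Mest had more. None of the 36 members tested was called by edgeR (quasi-likelihood F-test, adjusted p under 0.05), against 157 of 18488 genes, 0.849%, and DESeq2 called 0 as well. Both tools put 4 members at an unadjusted p under 0.05, which is 11.1%, against 7.3% of all genes by edgeR. The edgeR count rose when either aOPC replicate was left out and fell when either aOL replicate was. The median difference was -0.03 log2 units over the members and close to 0 over all genes, and 17 members were higher and 19 lower. The median size of the difference was 0.14 over the members and 0.18 over all genes. The members together took between 0.0967% and 0.101% of the counts of each library.

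**Figure D2:**
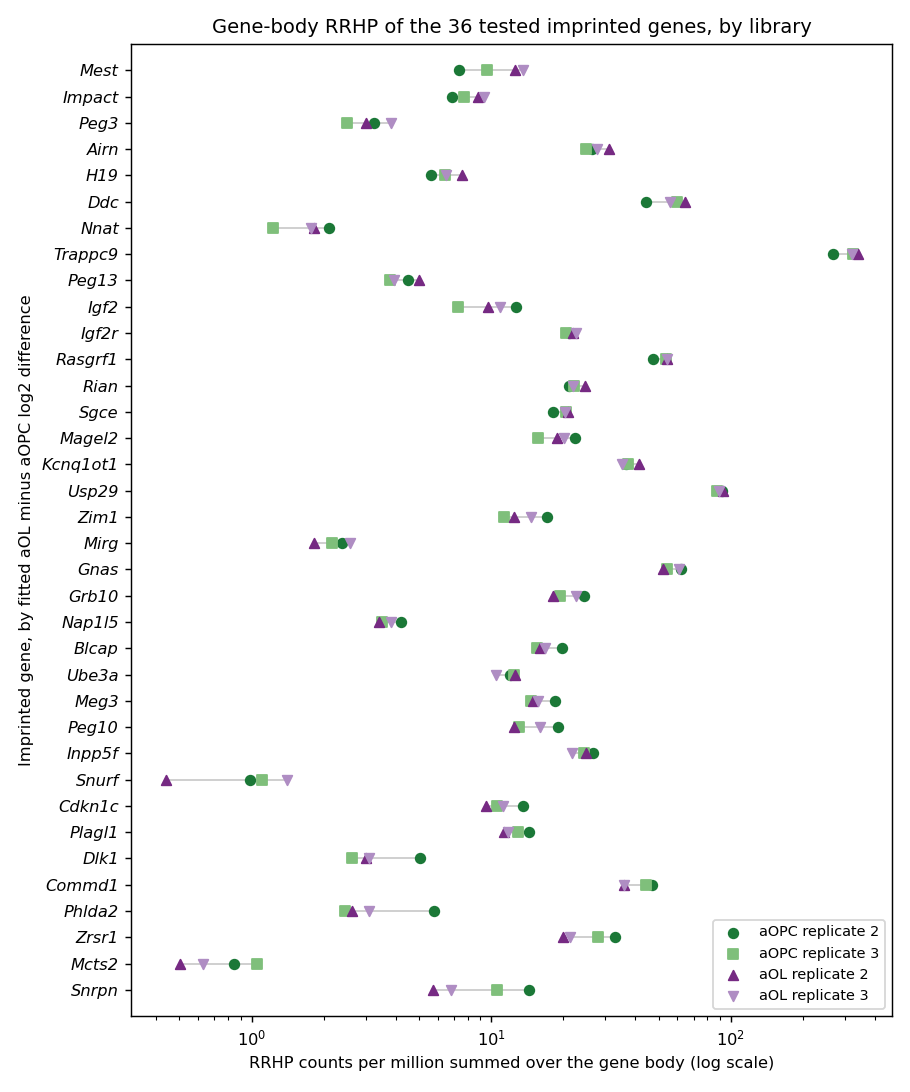
RRHP signal in CPM summed over the gene body (x axis, log scale) for the 36 imprinted genes tested (y axis), ordered by the fitted aOL minus aOPC difference, with 1 point per library and a grey line over the range. Snrpn and Zrsr1 near the bottom have both aOL libraries below both aOPC libraries, Mest at the top has them above, and most other genes have overlapping points.

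Snrpn (chr7:59982495-60450177) had 102 and 182 counts over 43 sites in aOPC and 91 and 184 in the deeper aOL libraries. In CPM this was 14.3 and 10.6 in aOPC against 5.71 and 6.80 in aOL, and the groups did not overlap. The difference was -0.97 ± 0.23 log2 units, 1.96-fold lower, with an adjusted p of 0.111. The adjusted p was 0.0107 without aOPC replicate 2 and 3.3e-05 without aOPC replicate 3, where 609 and 4246 of all gene bodies were called, but 0.9999 without aOL replicate 2 and 0.478 without aOL replicate 3. With only sites that had 3 reads in every library the difference was -0.61 (adjusted p = 0.746). A single site, described below, gave 17 and 42 of the aOPC counts. Without it Snrpn had 11.95 and 8.18 CPM in aOPC against 5.65 and 6.62 in aOL, still without overlap. RNA of Snrpn was higher in aOL by 0.69 ± 0.35, so the RNA and 5hmC values had opposite signs, neither past its threshold.

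Zrsr1 had 235 and 479 counts over 31 sites in aOPC against 318 and 575 in aOL, or 33.04 and 27.98 CPM against 19.97 and 21.25 CPM. The difference was -0.56 ± 0.14 log2 units, 1.48-fold lower in aOL (adjusted p = 0.169). In the same leave-outs the adjusted p was 0.0412 without aOPC replicate 2, 0.000348 without aOPC replicate 3, 0.9999 without aOL replicate 2 and 0.957 without aOL replicate 3. Of the 31 sites, 13 were lower in both aOL libraries than in both aOPC libraries in CPM and 5 were higher. The 24 body sites inside the CpG island summed to 21.09 and 11.97 CPM in aOPC against 9.61 and 10.4 in aOL. The 7 sites beyond the island summed to 11.95 and 16 CPM in aOPC against 10.4 and 10.9 in aOL. In both stretches each aOL library was below each aOPC library, and aOPC replicate 2 was the highest inside the island and replicate 3 beyond it. These CPM are on library totals, and the TMM-scaled difference over all 26 island sites of Zrsr1 was -0.0039 ± 0.57 log2 units, so it did not differ from that of all genes by more than its error. The site with the most reads in the promoter island, at chr11:22972993 on the minus strand, had 31 and 46 counts in aOPC against 33 and 64 in aOL, or 4.36 and 2.69 CPM against 2.07 and 2.37.

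**Figure D3:**
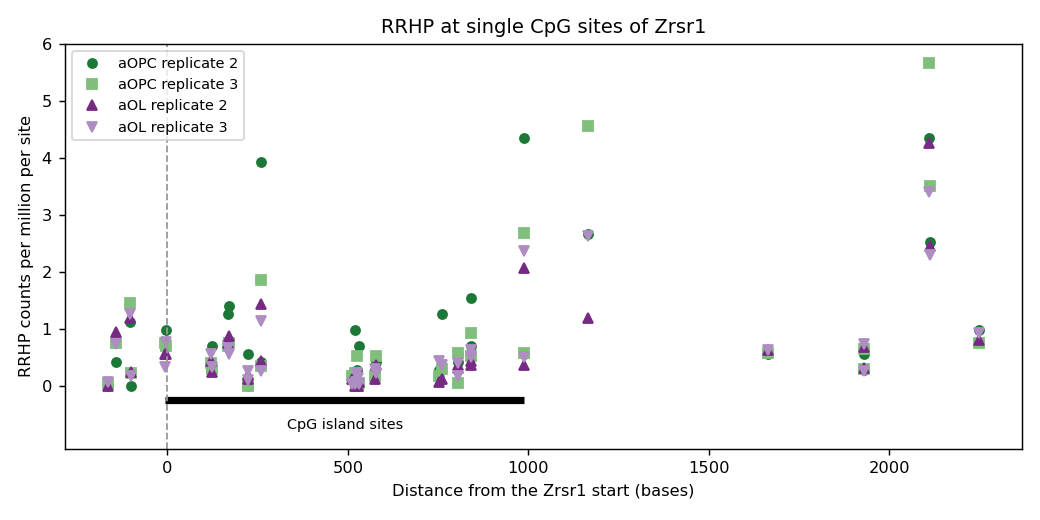
RRHP signal in CPM at each CpG site of Zrsr1 (y axis) against the distance from the gene's start in bases (x axis), with 1 point per library and a black bar over the CpG island sites. The aOPC points lie highest at several sites in and just past the island, and the site with the largest value in any library lies past the island.

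All 31 gene-body sites of Zrsr1 are also intron sites of Commd1, so the values of this pair are not independent. Commd1 had 47.1 and 44.4 CPM in aOPC against 35.8 and 35.7 in aOL, a difference of -0.36 ± 0.12 (adjusted p = 0.443). Its 29 sites outside Zrsr1 had 14.1 and 16.4 CPM in aOPC against 15.8 and 14.5 in aOL, so outside Zrsr1 the groups overlapped. The promoter of Zrsr1 is shown because it is the start of the island with the most RRHP counts per gene among the germline regions. The 250 bases before its start (chr11:22971755-22972004, plus strand, GRCm38, from RefSeq) are printed with each CCGG in capitals.
Zrsr1: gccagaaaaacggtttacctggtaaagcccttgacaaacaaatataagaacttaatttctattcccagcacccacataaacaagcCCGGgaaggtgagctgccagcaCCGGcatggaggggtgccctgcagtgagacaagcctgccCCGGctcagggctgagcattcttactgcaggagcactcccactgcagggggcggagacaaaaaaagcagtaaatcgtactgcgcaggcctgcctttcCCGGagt
This window has 4 CCGG sequences, and the 6 sites listed there had 23 and 68 counts in aOPC against 56 and 91 in aOL.

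Mest (chr6:30733506-30748466) had 52 and 165 counts over 16 body sites in aOPC against 201 and 367 in aOL, or 7.31 and 9.64 CPM against 12.6 and 13.6 CPM. The difference of 0.59 ± 0.20 had an adjusted p of 0.473 and of the leave-outs passed the threshold only without aOPC replicate 3 (0.00336), where 4246 gene bodies were called. The RNA of Mest was also higher in aOL, by 0.51 ± 0.36, which did not pass the test.

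The long non-coding RNAs of the imprinted regions had 5hmC counts along their length with small differences. Meg3, the maternally expressed RNA of the Dlk1 to Dio3 region, had 18.6 and 14.7 CPM in aOPC against 15.01 and 15.7 in aOL. Airn, the antisense RNA of the Igf2r region, had 26.3 and 24.9 CPM in aOPC against 31.1 and 27.7 in aOL, and Kcnq1ot1, the antisense RNA of the Kcnq1 region, had 36.6 and 37.4 against 41.3 and 35.1. Airn and Igf2r share 12 sites. H19, the RNA opposite Igf2 in its imprinted pair, had 5.62 and 6.42 CPM in aOPC against 7.54 and 6.47 in aOL, and Peg13, which lies in an intron of Trappc9, had 4.50 and 3.80 against 5.02 and 3.92. All 5 had an unadjusted p of 0.195 or more.

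The other protein-coding members had gene-body differences of at most 0.46 log2 units in size, apart from Mcts2. Mcts2 had 6 and 18 counts in aOPC against 8 and 17 in aOL, or 0.844 and 1.05 CPM against 0.502 and 0.628, without overlap, and a fitted difference of -0.76 ± 0.69 with an unadjusted p of 0.295. Igf2r, with a 3.74-fold difference in RNA, had 21.1 and 20.6 CPM in aOPC against 21.92 and 22.7 in aOL, without overlap, and a fitted difference of 0.09 ± 0.14. Peg3 had 3.23 and 2.51 CPM in aOPC against 3.01 and 3.81 in aOL, and Plagl1 14.3 and 12.9 against 11.4 and 11.8. Rasgrf1, an exchange factor for Ras, had 47.2 and 53.9 CPM in aOPC and 54.3 in each aOL library. Cdkn1c had 13.6 and 10.6 CPM in aOPC against 9.55 and 11.2 in aOL, Igf2 12.7 and 7.30 against 9.67 and 10.9, and Grb10 24.3 and 19.3 against 18.1 and 22.7. In Cdkn1c, Igf2 and Grb10 the aOPC replicates were as far apart as the groups. Ube3a had 11.9 and 12.5 CPM in aOPC against 12.6 and 10.5 in aOL. Gnas had 61.9 and 54.3 against 52.1 and 60.7, Peg10 18.98 and 13.03 against 12.5 and 15.97, and Inpp5f 26.6 and 24.5 against 24.8 and 21.8. Nnat, Nap1l5 and Impact were between 1.23 and 9.31 CPM in every library. Trappc9, the longest of the set by sites (310), had 266 and 325 CPM in aOPC against 340 and 321 in aOL. The fitted differences of Rian, Mirg, Usp29, Zim1, Dlk1, Sgce, Snurf, Magel2, Phlda2, Ddc and Blcap lay between -0.46 (Phlda2) and 0.18 (Ddc). Dio3 and Ndn had 1 and 3 sites and were too low to test.

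The scale matters more in promoters and islands than in gene bodies. With the scaling used here (TMM), the median difference of all genes was close to 0 in each. Scaling by library totals alone moved that median to -0.60 in promoters and -0.82 in islands, but to 0.01 in gene bodies, and the island share of counts was highest in aOPC replicate 2. The part of that share in the promoter and island values was not tested. Differences in promoters and islands are therefore relative to all genes, and CPM values, which are on library totals, can have the other sign.

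In promoters, 32 members had sites and 27 were tested. None was called, against 112 of 14579 genes, 0.768%, and DESeq2 also called 0 and put 0 at an unadjusted p under 0.05. By edgeR 1 member (3.7%) had an unadjusted p under 0.05, against 5.97% of all genes. This was Mest, with 11 and 43 counts over 11 sites in aOPC against 55 and 93 in aOL, or 1.55 and 2.51 CPM against 3.45 and 3.44 CPM. The difference was 1.01 ± 0.44 log2 units (adjusted p = 0.691). The difference was 0.38 without aOPC replicate 2 (adjusted p = 0.9997), 2.21 without aOPC replicate 3 (0.000391) and 0.74 with library totals (0.774). Without aOPC replicate 3, 3 members (Mest, Mcts2 and H19) and 1665 promoters of all genes were called. The reads of Mest lay mostly outside its island: the 4 island sites had 2 and 5 counts in aOPC against 6 and 25 in aOL. H19 had the most CPM per promoter site of any member, with 8.01 and 11.2 CPM over 6 sites in aOPC against 8.85 and 10.2 in aOL, a fitted difference of 0.29 ± 0.55 that did not pass the test. Zrsr1 had 24.3 and 15.9 CPM over its promoter in aOPC against 13.1 and 13.7 in aOL, but its fitted difference was -0.07 ± 0.60. Over the 27 members the median difference was 0.22, against -0.01 over all genes, and with library totals it was -0.29 against -0.60.

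In CpG islands, 31 members had sites and 25 were tested. None was called, against 62 of 10708 genes, 0.579%, and DESeq2 also called 0, with 0 at an unadjusted p under 0.05. By edgeR 4 members (16%) had an unadjusted p under 0.05, against 6.32% of all genes, but Peg3 and Usp29 share the same 4 island sites, so these are 3 islands. The edgeR count was 0 with library totals and 7 of 31 members without a filter, and it moved both ways when 1 library was left out. The shared island of Peg3 and Usp29 had 12 and 8 counts in aOPC against 15 and 31 in aOL, or 1.69 and 0.467 CPM against 0.942 and 1.15, so the groups overlapped in CPM. Kcnq1ot1 had 5 and 3 counts in aOPC against 10 and 18 in aOL over 3 sites, and Nap1l5 had 15 and 32 against 46 and 61 over 3 sites. Kcnq1ot1 overlapped in CPM (0.703 and 0.175 against 0.628 and 0.665), and Nap1l5 did not (2.11 and 1.87 against 2.89 and 2.25). The fitted differences were 0.84 ± 0.39 for Peg3, 1.44 ± 0.58 for Kcnq1ot1 and 0.90 ± 0.39 for Nap1l5, with adjusted p of 0.783, 0.619 and 0.714, and with library totals they were 0.04, 0.72 and 0.37. That of Nap1l5 was 0.30 without aOPC replicate 2, 1.68 without aOPC replicate 3, 0.47 without aOL replicate 2 and 1.41 without aOL replicate 3. Over the 25 members the median was 0.31, with 18 higher and 7 lower, against 0.00 over all genes. With library totals both medians were negative, -0.38 and -0.82.

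Relative to all genes, the islands of the imprinted genes carried more 5hmC counts per site. The median was 0.233 CPM per island site over 31 members and 0.148 over all 12617 genes with island sites, and 25 of the 31 members were above the latter. Among the 14 members with a germline-region island and island sites the median was 0.252 and 12 were above it. Among the 17 others it was 0.171 and 13 were above it. The islands are not all separate: Usp29 has the same 4 sites as Peg3 and Sgce the same 3 as Peg10, and Commd1 shares island sites with Zrsr1, so these counts take some islands more than once. Usp29, Sgce and Commd1 stand among the 17 others, so the medians do not separate germline-region islands from other islands. The higher level was seen in each library: the germline-region median was 0.362 and 0.207 CPM per site in aOPC against 0.217 and 0.258 in aOL, and the median of all genes was 0.281 and 0.0944 in aOPC against 0.0807 and 0.123 in aOL. In gene bodies the members had a median of 0.536 CPM per site, against 0.566 over all genes, with 16 of 38 above it. These levels are descriptions with no test. Within the germline set the range was wide, from 0.117 CPM per site in Mest to 0.760 in Nap1l5.

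**Figure D4:**
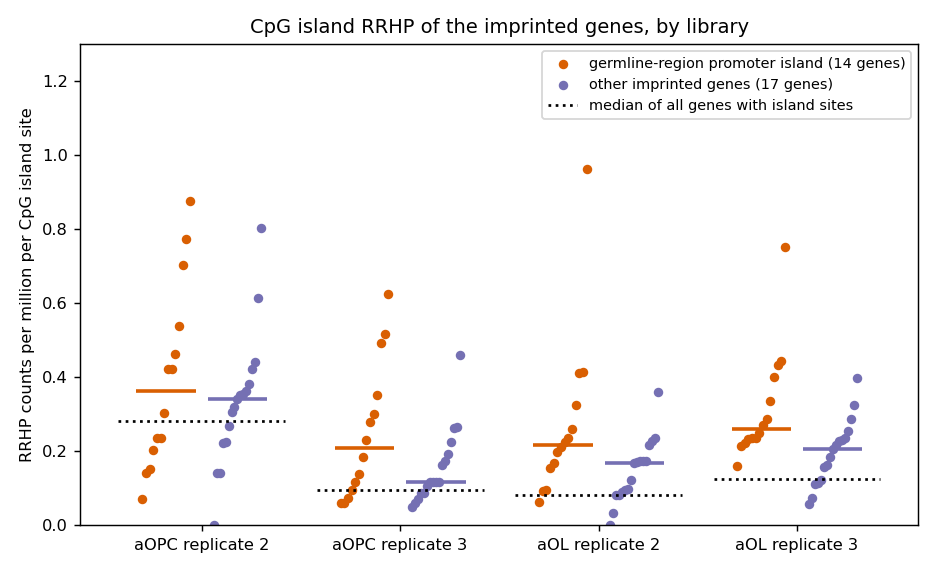
RRHP signal in CPM per CpG island site (y axis) in each library (x axis) for the 14 imprinted genes with a germline-region promoter island (orange) and 17 other imprinted genes (purple), 1 point per gene, with a line at each median and a dotted line at the median of all genes with island sites. In every library both medians lie above the dotted line, and the medians are highest in aOPC replicate 2. Some of the 17 others share island sites with the 14.

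The promoter-island site with most reads was not called in any of the germline-region genes where it was tested. In Airn it had 8 and 21 counts in aOPC against 16 and 45 in aOL, in Mcts2 2 and 16 against 20 and 31, in Nap1l5 7 and 23 against 23 and 34, and in Nnat 14 and 15 against 8 and 28. Peg13 had 6 and 10 counts against 7 and 14. Adjusted p was 0.597 or more in each, Zrsr1 included. In Grb10, Inpp5f, Kcnq1ot1, Mest and Plagl1 this site had fewer than 20 counts in every library and was not tested. In a gene with several promoters, the island read here need not be the germline region.

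**Figure D5:**
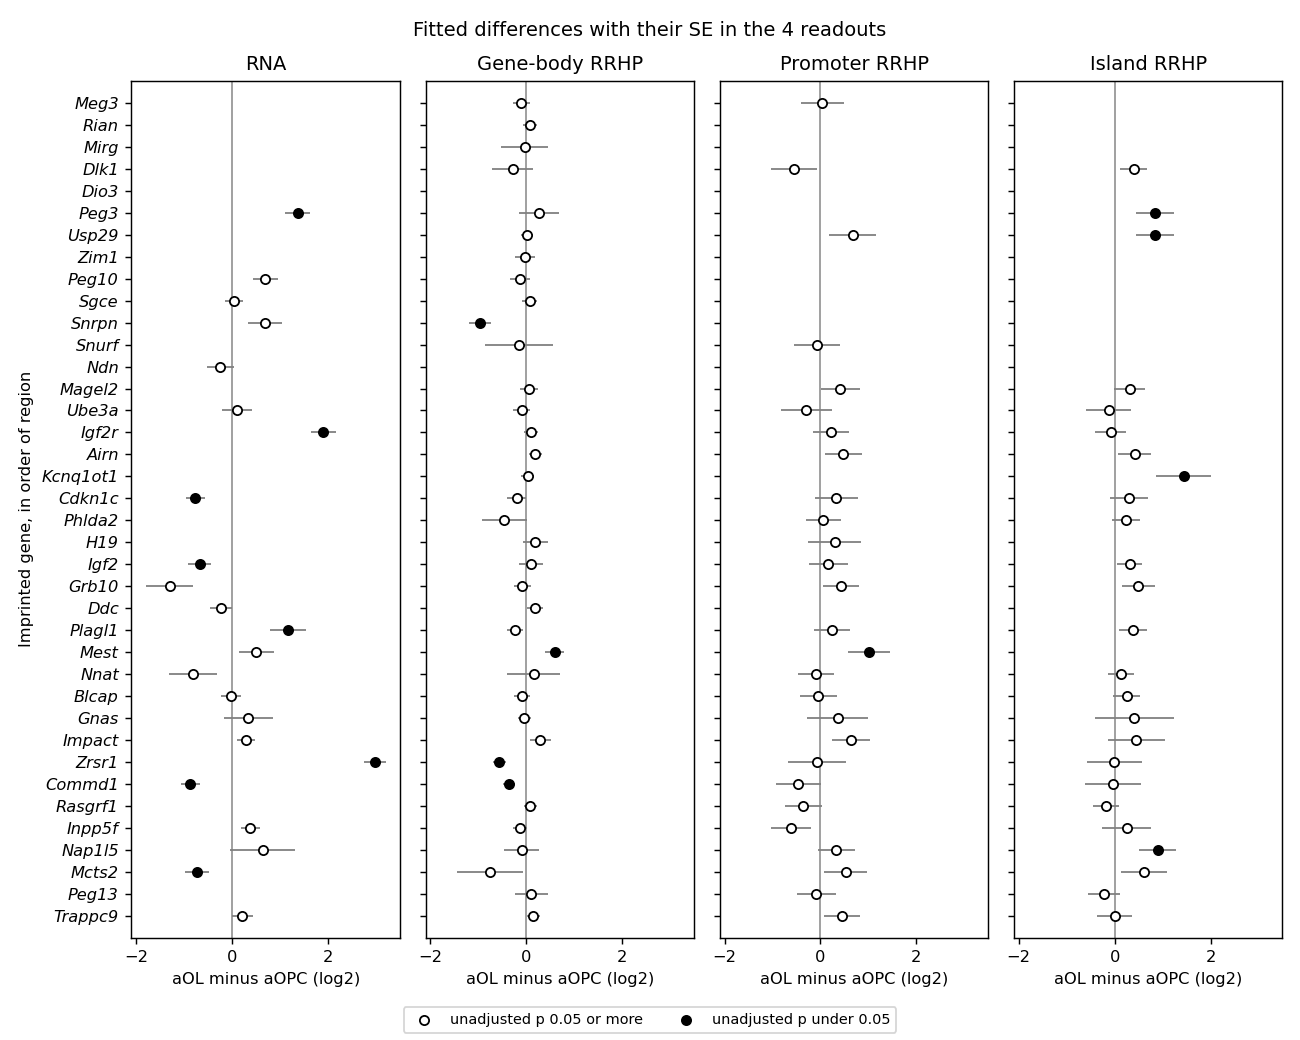
Fitted aOL minus aOPC differences (x axis, log2 units) of the 38 imprinted genes (y axis, by region) in RNA, gene bodies, promoters and CpG islands, with bars of 1 SE and filled points at an unadjusted p under 0.05; genes without a point were not tested. RNA differences reach 2.98 in Zrsr1, while gene-body differences stay between -0.97 and 0.59.

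Single CpG sites were then tested. Of the 1492 sites of the members, 457 had at least 10 reads in at least 2 libraries, and 2 were called, both in the Snrpn region of chromosome 7. Over all 443062 sites tested, 10154 were called, 2.29%. At an unadjusted p under 0.05 there were 44 sites (9.63%), 30 higher and 14 lower in aOL, against 9.75% of all sites, and 16 of the 44 lay in Trappc9. This count was 40 without aOPC replicate 2, 96 without aOPC replicate 3, 3 without aOL replicate 2, 9 without aOL replicate 3 and 14 with DESeq2. Of the 44, 23 passed the filter on reads through one population only, so their difference is partly fixed by the filter, and this holds for both called sites.

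The first called site lies in an intron of the long Snrpn transcript, 63618 bases upstream of the Snurf start, at chr7:60068817 on the plus strand. It had 17 and 42 counts in aOPC against 1 and 5 in aOL, or 2.39 and 2.45 CPM against 0.0628 and 0.185. The aOL value of 1 count is below the floor. The difference was -4.16 ± 0.58 log2 units (adjusted p = 0.000424 by edgeR and 0.000193 by DESeq2). The same CCGG on the minus strand, at chr7:60068818, had only 1 count in each aOPC library and 0 in both aOL libraries. The call thus rests on 1 strand. The CCGG 52 bases further along gave 5 and 9 counts in aOPC and 1 in each aOL library, so the neighbouring site was lower as well. The surrounding 110 bases (chr7:60068767-60068876, plus strand, GRCm38) are printed with both CCGG sequences in capitals, the first being that of the called site.
Snrpn intron: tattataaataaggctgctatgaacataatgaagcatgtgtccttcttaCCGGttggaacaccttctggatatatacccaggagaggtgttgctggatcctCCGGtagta
The reference marks 100% of the 51 bases centred on this site as repeat. The central 31 bases occur 12 times in the genome, and all 51 occur 1 time.

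The second called site lies in the coding sequence of Magel2 (chr7:62376979-62381640), a MAGE family gene of the same region, at chr7:62379154 on the plus strand. It had 0 counts in both aOPC libraries and 16 and 42 in aOL, or 1.005 and 1.55 CPM, which over the group is at least 10.9-fold higher against a floor of 3 counts over both aOPC libraries. The adjusted p was 0.00367 by edgeR and 0.0202 by DESeq2. The next listed site on that strand, 18 bases away at chr7:62379172, had the opposite pattern, with 7 counts in each aOPC library and 0 in both aOL libraries. Summed, the neighbouring pair had 0.984 and 0.409 CPM in aOPC against 1.005 and 1.55 in aOL. A site 36 bases beyond, at chr7:62379208, had 9 and 17 counts in aOPC against 17 and 26 in aOL with an adjusted p of 0.937. The stretch of 108 bases (chr7:62379118-62379225, plus strand, GRCm38) is shown because both opposite sites lie in it, with each CCGG in capitals.
Magel2 coding stretch: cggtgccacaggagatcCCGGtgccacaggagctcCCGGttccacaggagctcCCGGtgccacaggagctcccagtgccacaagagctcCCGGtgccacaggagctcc
The called site is at the second CCGG and the opposite one at the third. The stretch is a tandem repeat: shifted by 18 bases it matches itself at 92.2% of positions, and shifted by 36 bases at 93.1%. Over the whole Magel2 body the counts were 22.4 and 15.7 CPM in aOPC against 18.8 and 20.1 in aOL.

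Both called sites fall in the same 5 Mb interval of chromosome 7, from which 76 of 532 tested sites (14.3%) were called with at most 3 counts in both libraries of one population. The Magel2 site meets this rule, and the Snrpn site, with 5 counts in aOL replicate 3, does not. This interval ranked 7 of 532 intervals, whose median was 0.55%. The neighbouring interval with Ube3a ranked 70 (3.86%), that of Dio3 ranked 29 (7.75%), that of Zrsr1 and Commd1 90 (2.69%) and that of Dlk1 and Meg3 102 (2.22%). The intervals of the other members were between 0.109% and 1.21%. The part of this regional rate in the values of the called sites was not tested.

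The promoters were also read for 2 short motifs on both strands, in RefSeq windows of 300 bases (250 before to 50 after a start), which 31 of the 38 genes had. CCGG was in 25 of 46 windows of the members (54.3%) and in 52.8% of all 32851 windows. TGCCGC, the core letters of the motif bound by ZFP57, a protein that keeps germline regions methylated, was in 13 of the 46 windows (28.3%) and in 11.6% of all windows. For genes with a germline-region island it was in 9 of 19 windows (47.4%), in Grb10, Mcts2, Mest, Nap1l5, Nnat, Plagl1, Snrpn and Snurf, while Commd1, Igf2, Meg3 and Zim1 held it among the others. A match is a description of letters and not of binding. The 250 bases before the starts of Snurf (chr7:60005200-60005449, minus strand) and Nap1l5 (chr6:58907127-58907376, minus strand) are printed as a germline promoter with a CCGG and one without, in GRCm38 from RefSeq, with CCGG and TGCCGC in capitals.
Snurf: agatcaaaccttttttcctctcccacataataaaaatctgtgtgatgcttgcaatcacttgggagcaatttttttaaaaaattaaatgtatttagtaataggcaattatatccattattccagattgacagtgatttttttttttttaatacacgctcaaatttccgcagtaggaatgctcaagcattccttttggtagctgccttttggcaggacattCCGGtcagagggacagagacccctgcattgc
Nap1l5: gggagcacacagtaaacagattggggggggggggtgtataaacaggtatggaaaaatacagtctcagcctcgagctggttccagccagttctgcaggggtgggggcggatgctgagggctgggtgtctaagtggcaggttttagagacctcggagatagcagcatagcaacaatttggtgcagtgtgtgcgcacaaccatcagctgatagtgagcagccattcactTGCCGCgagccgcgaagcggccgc
The TGCCGC of Snurf does not lie wholly within the printed bases. The CCGG of Snurf gave 8 and 1 counts in aOPC against 0 and 8 in aOL over the 2 sites listed in its window. Nap1l5 had no CCGG and no site in this window, and its island counts come from sites inside the gene.

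Other imprinted genes and the proteins that set and keep imprints were compared in the same way. Of 40 further imprinted genes, 17 were tested in RNA and 0 called, and 3 had an unadjusted p under 0.05, beside 24% of all genes by limma. Cobl, an actin nucleator, was higher in aOL (11.82 and 11.46 against 12.50 and 12.42), Tssc4 lower (11.31 and 11.26 against 10.50 and 10.64), and Dcn, a matrix proteoglycan that is also in the fibroblast list, lower (8.34 and 9.97 against 5.38 and 4.66). Their median difference was -0.08. In promoter 5hmC, 31 were tested and 1 was called: Cd81, a tetraspanin gene, had 2 and 18 counts over 2 sites in aOPC against 59 and 73 in aOL (2.33 ± 0.53 log2 units, adjusted p = 0.0264), beside 0.768% of all promoters called. The gene body of Cd81 had the opposite sign, with 9.98 and 5.315 CPM in aOPC against 3.89 and 4.73 in aOL (-0.78 ± 0.34, adjusted p = 0.668). At an unadjusted p under 0.05 by edgeR there were 3 of the 31 promoters, against 5.97% of all promoters. In gene bodies 35 were tested and 0 called by edgeR, with 3 at an unadjusted p under 0.05, against 7.3% of all gene bodies. Of 14 genes of imprint establishment and maintenance, 11 were tested in RNA and 0 called, and 1 had an unadjusted p under 0.05, beside 24% of all genes. This was Setdb1, a histone H3 lysine methyltransferase gene, with 10.97 and 10.73 in aOPC against 11.48 and 11.60 in aOL. The median difference of the 11 was 0.11. In 5hmC of these genes 13 were tested in gene bodies and 11 in promoters, and 0 were called by edgeR. At an unadjusted p under 0.05 there were 1 and 0, against 7.3% and 5.97% of all genes.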

How the data were processed

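RNA and DNA were measured in 2 aOPC and 2 aOL libraries each, grouped by the sample titles. The members and lists were chosen with earlier results of these data known. The deposited RNA files hold log2 values per gene; the methods name alignment to mm10 with BWA, featureCounts for exon reads and DESeq2 as the steps of the authors, and the deposited values have near-equal quantiles, as after quantile normalization. They carry no depth. The deposited RRHP files list, for each CpG site on each strand, its raw count of reads, with the authors' promoter, exon, intron and island columns, and the aligner and duplicate treatment are not given in the sources used here. A site absent from a library's file was given 0, and all 1492 member sites lay at a CCGG of GRCm38, to which 1-based positions refer.

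RNA was tested with limma 3.58.1. Genes with log2 values of at least 5 in 2 libraries entered the fit and were called at p under 0.01 and a Benjamini-Hochberg adjusted p under 0.05. RRHP counts were summed per gene body, promoter or island and fitted in edgeR 4.0.16 with TMM scaling and filterByExpr, using its quasi-likelihood F-test, and sites with at least 10 reads in 2 libraries were tested singly, at an adjusted p under 0.05 over all features. DESeq2 1.42.0 was an alternative. Tests are two-sided. The limma and edgeR fits were checked on simulated data with changes larger than most of those reported here, and DESeq2 was not checked in this way. CPM scale a count to the library total, and the floor was 3 counts, covering counting error only. Values in every library are given for members with an unadjusted p under 0.05, or with groups apart by at least 1 log2 unit, for the lead gene of each region and for called sites; at most 6 genes outside the 38 are named, from those called or at an unadjusted p under 0.05 without overlap, here those in RNA and the called promoter, a choice made after the values were seen, and the rest are counted. Some lie outside this rule and were named after their values were seen: the cell type markers, Magel2's neighbouring sites, and members given only by name or range. Replicates are separate samples in the labels, and where nothing says they came from separate mice, p-values measure only the spread between them. R 4.3.3 and Python 3.11.15 were used.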

Additional observations from a re-analysis of the deposited data

How the results depend on the processing

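With 2 libraries per population, the number of members called changed most when an aOPC replicate was left out. The counts at an unadjusted p under 0.05 in RNA and single sites fell most without an aOL replicate. The number of members called in RNA was 0 in the fit reported, without a filter and with repeated quantile normalization, 1 (Zrsr1) with a minimum log2 value of 7, with an intensity trend and with the replicate block, and 1 to 7 when 1 library was left out; over all genes 9 were called in the fit reported and 0 to 127 under these settings with all libraries. In gene bodies, promoters and islands the count was 0 under library totals, RLE size factors, DESeq2, no filter, sites with 3 reads in every library and the replicate block, and it was 0 to 6, 0 to 3 and 0 to 2 when 1 library was left out. The highest values came without aOPC replicate 2 in RNA (7) and without aOPC replicate 3 elsewhere, where 4246 gene bodies were called over all genes in place of 157. Without aOPC replicate 2 the RNA calls were Gnas, Igf2r, Mcts2, Nap1l5, Peg3, Plagl1 and Zrsr1, and without aOPC replicate 3 they were Cdkn1c, Commd1, Igf2r, Mest, Peg10 and Zrsr1 (6), beside 3995 and 2344 of all genes. In gene bodies without aOPC replicate 3 they were Commd1, Ddc, Mest, Phlda2, Snrpn and Zrsr1 (6), and in islands Mcts2 and Nap1l5 (2), beside 488 of all genes. The lone library left in a population is then assumed to vary like the other population. Over all genes, 62 islands were called in the fit reported and 4 with library totals, 5 with DESeq2 and 8 with the replicate block.

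Among single sites of the members, 2 were called in the fit reported, 3 with library totals, 2 with RLE size factors or DESeq2, 4 with the replicate block, 0 when 10 reads were required in every library, 0 when 20 reads were required in 2 libraries (both called sites leave the table under either filter), and 1 to 25 without 1 library. The replicate numbers did not pair the samples: same-numbered libraries come from different reporter lines, and the deviations from the group means correlated at -0.07 in RNA and -0.41 in gene-body RRHP.

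The 20 values of named genes or sites gave 178 recomputed values, of which 156 kept direction and side of the threshold, 22 passed it where the reported value did not, and 0 changed sign. Settings in which a named value left the fit are not counted. Examples are the Snrpn site without either aOPC replicate, the Magel2 site without either aOL replicate and Igf2 RNA at the higher minimum. The islands of Peg3 and Usp29 are the same sites counted under both names. In an alternative added after the data were seen, the pooled gene-body ratio of Commd1 went from -0.34 to -0.07 log2 units without the sites of Zrsr1. Low RRHP counts limit the islands, where several members had fewer than 20 counts per library.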
